A study of Mus musculus with 2 samples.

Results

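The RUNX genes Runx1, Runx2 and Runx3 were examined as places where the chondrocyte factors SOX6 and SOX9 were called as bound in mouse rib cartilage cells. Their members were all peaks of a Sox6 and a Sox9 list whose centres lay in 3 fixed mm9 windows: chr16:92590000-92900000 for Runx1 (310 kb), chr17:44600000-45000000 for Runx2 (400 kb) and chr4:134650000-134760000 for Runx3 (110 kb). This gave 138 of the 102972 called peaks. They comprise 110 of 79107 in the Sox6 list and 28 of 23865 in the Sox9 list. Binding was measured by ChIP-seq, the sequencing of DNA that an antibody to a factor pulls down from fixed chromatin. The Sox6 ChIP used untreated wild-type primary rib chondrocytes of ICR mice at postnatal day 1 and was accompanied by a sample of input DNA, taken from such cells with no antibody step. Mature hypertrophic cartilage, a known site of RUNX2 activity, was left out at dissection. The Sox9 list is the authors' new call of peaks from earlier samples of mouse rib chondrocytes, whose strain, age and treatment the sources used here do not give. Each factor has 1 list without replicates, no values of the input were analysed here, and neither list holds scores or read counts, so depth is unknown and no difference below was tested. A difference between factors cannot be told apart from a difference between antibodies, animals, libraries or depths. The lists hold no expression values either, so the labelled cell type could not be checked against its markers.

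RUNX proteins are transcription factors that bind DNA through the Runt domain together with the partner CBFB. RUNX2 is required for bone formation and drives chondrocytes towards hypertrophy, RUNX3 acts beside it in cartilage maturation, and RUNX1, best known from blood stem cells, is also made in early cartilage. SOX9 holds chondrocytes in the proliferating state and is known to oppose RUNX2, while SOX6 acts with SOX9 on cartilage matrix genes. Each RUNX gene is known to be read from a distal and a proximal promoter.

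A sequence shared by the 3 genes stands at their most upstream promoter in RefSeq's promoter table (build GRCm38.p6). These stretches are shown because this run of 18 bases is the longest one common to the 3 upstream promoters, here in capitals and written 5′ to 3′ on the gene's strand:
Runx1, chr16:92826025-92826054, minus strand: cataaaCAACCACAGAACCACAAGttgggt
Runx2, chr17:44814583-44814612, minus strand: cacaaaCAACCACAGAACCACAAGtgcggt
Runx3, chr4:135120503-135120532, plus strand: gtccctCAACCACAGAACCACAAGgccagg
The run holds the RUNX recognition motif AACCACA (searched on both strands) at 2 places that do not overlap. It spans bases 27 to 44 after the transcript start of Runx1 and bases 22 to 39 of Runx2, counted from 1 at the first transcribed base, but lies from -136 to -119 before the start of Runx3. Over all 32851 promoters of 300 bases in the table, the run occurred in 4 (0.0122%), of which 3 are the promoters it was taken from. The remaining promoter is that of the lncRNA Gm16225, which lies on the other strand and overlaps the Runx3 promoter by 232 bases. For comparison, 5.27% of all promoters held AACCACA at least at 1 place and 0.204% held at least 2 matches. Runx2 had a further match at -81, and the second promoters listed for Runx1 and Runx3 had none. The SOX core motifs ACAAAG and ACAATG, on both strands, were in none of the 5 RUNX promoters and in 28.6% of all promoters. With only 5 promoters, this absence was not tested. Their content of G and C, from 45% to 77.3%, was not matched in the background. A match is a string of letters and not a measured site, and these windows of 300 bases say nothing of SOX binding elsewhere in the loci. The promoter positions are in another build than the peaks and were not compared with them.

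The genes also share their neighbourhood in the RefSeq gene table, where each RUNX gene lies beside a Clic gene (an intracellular chloride channel family) and near an Rcan gene (regulators of calcineurin). These are Clic6 and Rcan1 for Runx1, Clic5 and Rcan2 for Runx2, and Clic4 and Rcan3 for Runx3. Runx2 overlaps Supt3, a gene for a transcription co-activator subunit, and the lncRNA Runx2os3, and Runx1 overlaps the lncRNA Gm30281. The genes measure 225 kb, 319 kb and 57.3 kb in that table, so each window is longer than its gene. No mm9 annotation was used, so the peaks are given by mm9 position and were not assigned to promoters, exons, introns or a single gene of the window.

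In these windows Sox6 peaks were dense at Runx1 and Runx2 and less so at Runx3, and Sox9 peaks followed the same order by a smaller margin. The counts of Runx3 changed with the width of its window. Widened by 50 kb on each side, the windows of Runx1, Runx2 and Runx3 held 63, 58 and 21 Sox6 peaks. The Sox9 counts were then 15, 15 and 4. The same widening lengthens the short Runx3 window most in proportion, so the larger rise of its counts is built in. Runx3 still held the fewest peaks of both factors, and densities were not recomputed for the widened windows. The Runx1 window held 56 Sox6 peaks, or 181 per Mb, against 29.5 per Mb on chromosome 16 and 30.9 per Mb over the whole list, which is 5.85 times the list's density. The Runx2 window held 47 Sox6 peaks, or 118 per Mb (3.81 times the whole list), and the Runx3 window held 7, or 63.6 per Mb (2.06 times). For Sox9 the windows held 12, 14 and 2 peaks, in the order Runx1, Runx2, Runx3. These are 38.7, 35.0 and 18.2 peaks per Mb, against 9.33 per Mb over the whole Sox9 list. In Runx1 there were 4.67 Sox6 peaks for each Sox9 peak, and in Runx2 3.36, against 3.31 over the whole lists. These contrasts between Runx1 and Runx2 depended on the later part of the lists. With the first 50% of each list, Runx1 (310 kb) held 21 Sox6 and 5 Sox9 peaks, and Runx2 (400 kb) 27 and 2. With the Sox6 list shortened to the length of the Sox9 list, Runx1 held 11 Sox6 and 12 Sox9 peaks, and Runx2 13 and 14. Densities were not recomputed for the shorter lists.

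Other places in the genome were as dense, a small share of them for Runx1 and Runx2 and a larger share for Runx3. When the range of the peaks on each chromosome was divided into tiles of each window's length, 33 of 8254 tiles (0.4%) held at least the 56 Sox6 peaks of Runx1, and 357 (4.33%) held at least its 12 Sox9 peaks. For Runx2, 2.59% of 6400 tiles reached its 47 Sox6 peaks and 4.86% its 14 Sox9 peaks. For Runx3, 18.5% of 23290 tiles reached its 7 Sox6 peaks and 23.4% its 2 Sox9 peaks, so that locus lay within the upper part of the common range. Sox9 peaks were also counted in the tiles with at least as many Sox6 peaks as Runx1 or Runx2. Among the 33 such tiles for Runx1, the median was 17 Sox9 peaks and 30 tiles had at least 12. Among the 166 such tiles for Runx2, the median was also 17, and 113 had at least 14. These tiles held up to 121 (Runx1) and 118 (Runx2) Sox6 peaks. They were thus not matched to the windows, and the Sox9 medians cannot show whether Runx1 or Runx2 has few Sox9 peaks for its Sox6 count. The tiles include desert and unmappable sequence and were not matched to genes, so these shares are a background and not a test.

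**Figure D1:**
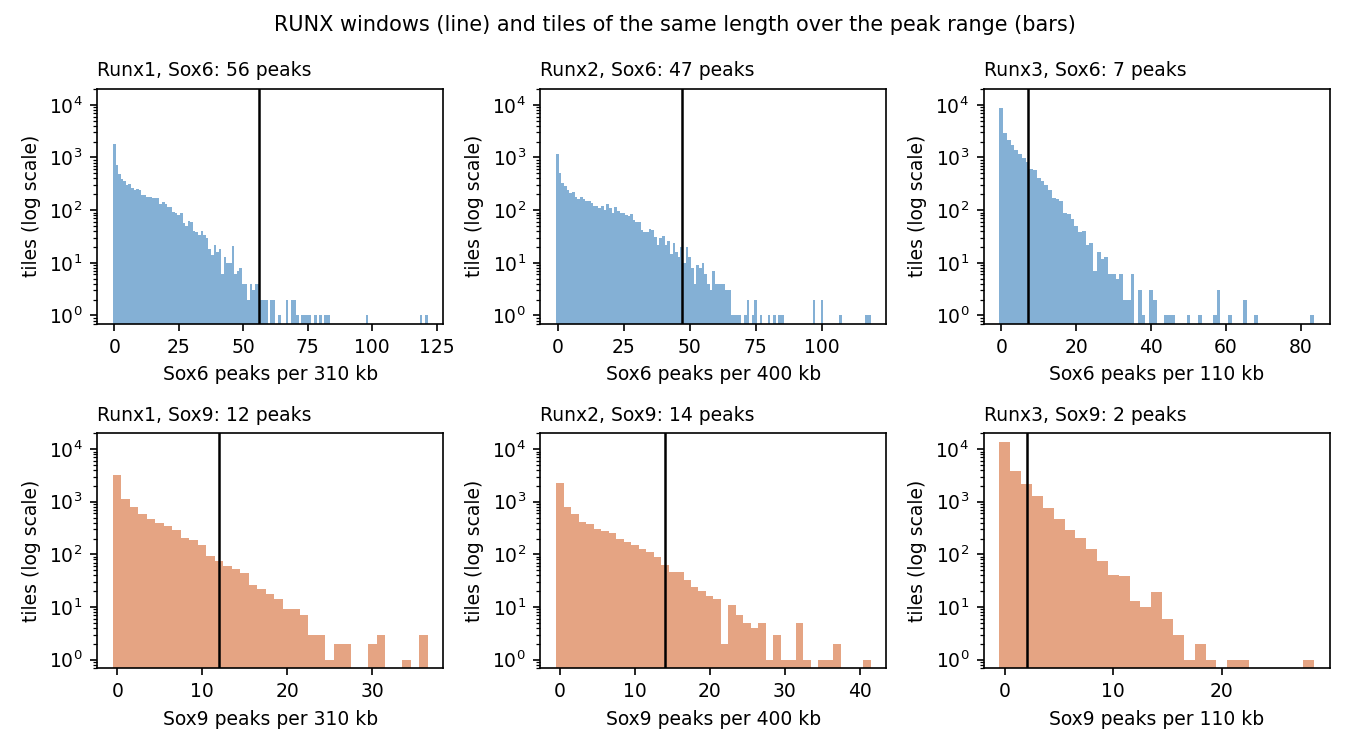
Number of tiles (y axis, log scale) by number of peaks per tile (x axis), for Sox6 (top) and Sox9 (bottom), with tiles of 310, 400 and 110 kb; the black line marks the Runx window. The lines for Runx1 and Runx2 stand in the upper tail in every panel, with 0.4% to 4.86% of tiles at or beyond them, and those for Runx3 do not.

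Of the 110 Sox6 peaks of the 3 windows, 24 overlapped a Sox9 peak by at least 1 bp, which is 21.8% (95% exact binomial interval 14.5 to 30.7), against 23.1% of the whole Sox6 list. Of the 28 Sox9 peaks, 24 overlapped a Sox6 peak, or 85.7% (67.3 to 96.0), against 76.7% of the whole Sox9 list. Both shares lay near their backgrounds, and each interval includes its background. The intervals cover counting error only and treat peaks as independent, which neighbouring peaks are not. By gene, 9 of 56 Sox6 peaks were shared in Runx1 (16.1%, 7.62 to 28.3), 13 of 47 in Runx2 (27.7%, 15.6 to 42.6) and 2 of 7 in Runx3 (28.6%, 3.67 to 71.0). For Sox9 the shared peaks were 9 of 12 in Runx1 (75.0%, 42.8 to 94.5), 13 of 14 in Runx2 (92.9%, 66.1 to 99.8) and 2 of 2 in Runx3. Within each factor the intervals of the 3 genes overlap widely, and differences between the genes were not tested.

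Sharing falls along both lists, so the members were also set beside peaks at like places. Here the whole list was divided into 20 bins by place, and each member was given the shared share of its bin. For Sox6 this gave 19.5% in Runx1, against the 16.1% seen, and 20.8% in Runx2, against 27.7%. For the Sox9 peaks of Runx2 it gave 70.6%, against 92.9%, and for those of Runx1 76.6%, against 75.0%. These values lie inside the intervals above.

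**Figure D2:**
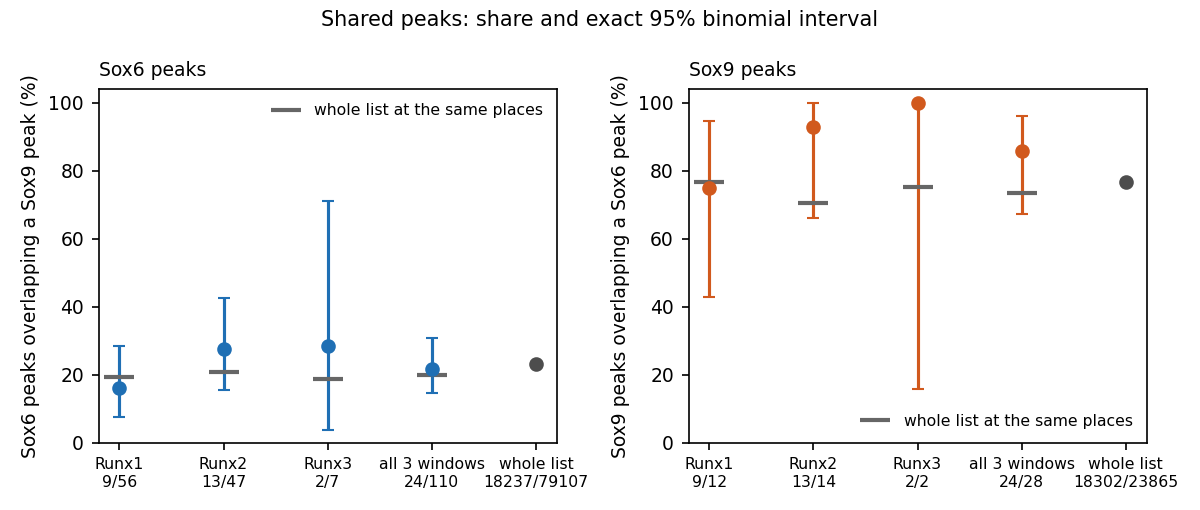
Share of Sox6 peaks (left) and Sox9 peaks (right) that overlap a peak of the other list, in percent, with exact 95% binomial intervals; grey dashes give the whole list at the same places. The intervals of all 3 genes include the whole-list shares of 23.1% and 76.7%.

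In the Runx1 window the peaks of both factors were gathered at the low-coordinate end. Runx1 is read from the minus strand, so this end is on the downstream side of the gene. The lowest 103 kb held 29 Sox6 and 8 Sox9 peaks, the middle 103 kb held 18 and 3, and the highest 103 kb held 9 and 1. A run of 29 Sox6 peaks with neighbouring centres within 12.5 kb lay from 92566012 to 92654327. Of these, 26 were inside the window, and 6 of the 29 were shared, where 23.1% of the whole Sox6 list was shared. Of the 9068 such Sox6 clusters of the list, 51, this one included, had at least as many peaks. A second Sox6 cluster of 15 peaks, from 92674519 to 92710875, contained 1 shared peak, and 313 clusters had at least as many peaks. Between the clusters of the window the Sox6 peaks thinned out, with a widest gap of 33.4 kb between neighbouring centres.

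**Figure D3:**
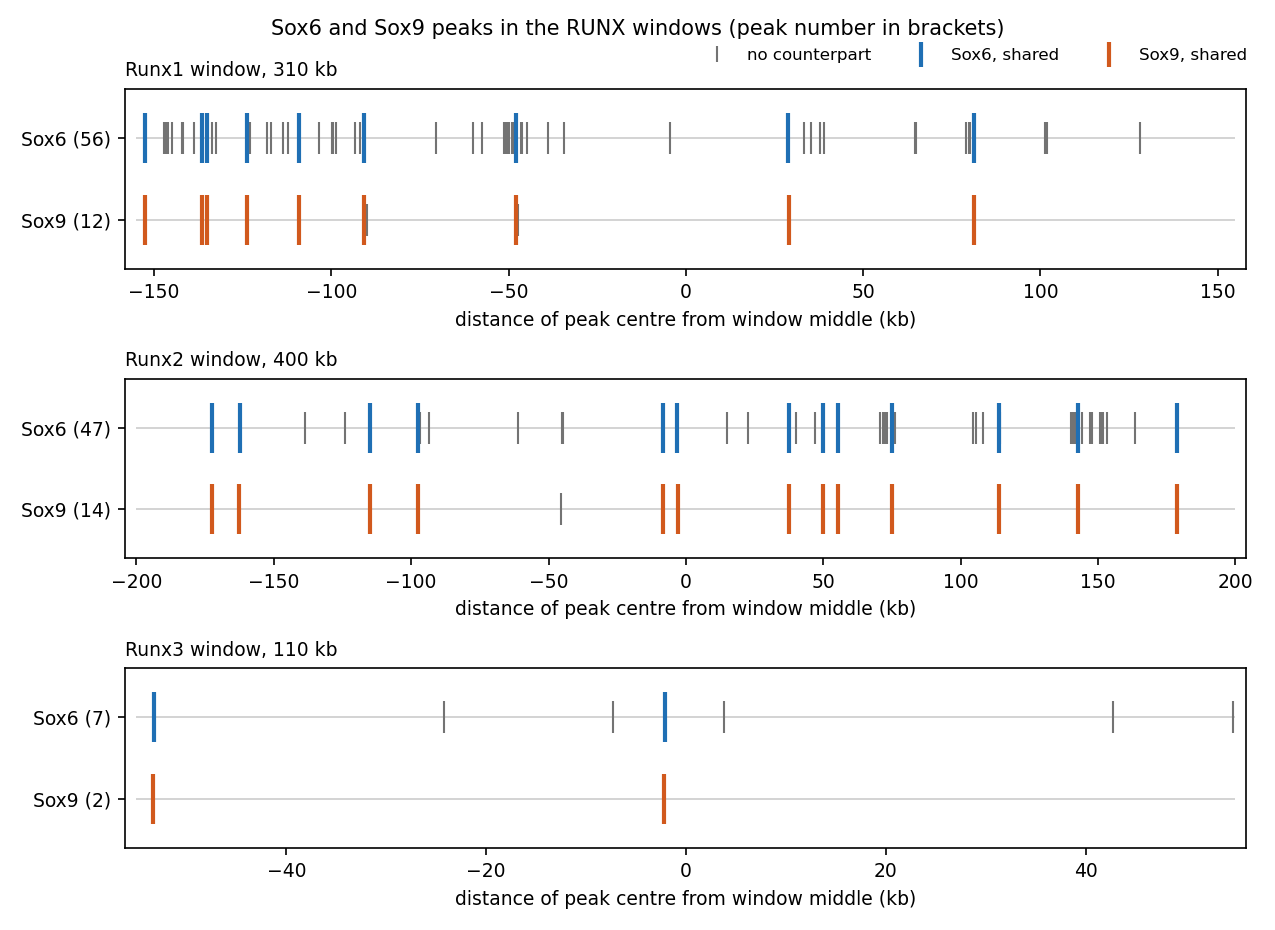
Peak centres by distance from the middle of each window (kb), Sox6 above Sox9; tall coloured marks are peaks that overlap the other list and short grey marks have no counterpart. In Runx1 most peaks lie left of the middle, in Runx2 the 14 Sox9 peaks are spread over the window while 27 of 47 Sox6 peaks lie in its right-hand 133 kb.

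The shared Runx1 sites fell into early-listed and late-listed ones. At the site with the earliest Sox9 peak, chr16:92654167-92654325 at place 550 of the Sox9 list, the Sox6 peak chr16:92654195-92654327 stood at place 2188, with centres 15 bp apart. The earliest Sox6 peak of the window was chr16:92773810-92773973 at place 1122, whose Sox9 counterpart chr16:92773883-92774088 came only at place 14204 and was centred 94 bp away. Next by Sox6 place came chr16:92621105-92621206 at place 1316, inside the Sox9 peak chr16:92621085-92621272 at place 2368. These 3 Sox6 peaks, the first of the window by place, were all shared and lay in the first 2.77% of the list, where 78.3% of all Sox6 peaks of their bin (the first of 20) were shared.

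The other shared sites of Runx1 were these. Sox6 place 4011, chr16:92609713-92610018, covered the whole of Sox9 place 3726, chr16:92609754-92609929. Sox6 place 4163, chr16:92696957-92697084, contained the narrow Sox9 peak chr16:92697046-92697064 (place 7780), which was 19 bp wide. Of the later-listed pairs, chr16:92826121-92826379 (Sox6 place 16756) met chr16:92826193-92826405 (Sox9 place 17529), the shared site at the highest coordinate. The remaining pairs were late in at least 1 list. They were chr16:92608507-92608671 with chr16:92608475-92608647 (Sox6 place 20483, Sox9 place 20691), chr16:92592475-92592581 with chr16:92592483-92592605 (places 42543 and 13514) and chr16:92635798-92635878 with chr16:92635726-92635909 (places 44508 and 20684).

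The 3 Sox9 peaks of Runx1 without a Sox6 counterpart had a Sox6 centre within 1000 bp, as did 58.8% of all unshared Sox9 peaks. The peaks chr16:92654815-92654960 (place 9171) and chr16:92655036-92655154 (place 12775) had the nearest Sox6 centre 626.5 and 834 bp away, next to the Sox9 peak at place 550. The third, chr16:92697546-92697702 (place 21408), was 603.5 bp from a Sox6 centre. Unshared Sox6 peaks were farther from Sox9. Their median distance to a Sox9 centre was 5588 bp in Runx1 (673.5 to 33525 bp). For unshared peaks of the whole Sox6 list it was 15935 bp. Within 1000 bp were 2 of 47 in Runx1 (4.26%), 6 of 34 in Runx2 (17.6%) and 0 of 5 in Runx3. Together these were 8 of 86 (9.30%), near the 10.3% of unshared peaks of the whole list. Widths of the 56 Sox6 peaks of Runx1 ran from 61 to 469 bp. The widest, chr16:92698112-92698580, was listed at place 57816 and had no counterpart.

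Runx2, the gene most tied to chondrocyte hypertrophy, had its Sox9 peaks spread over the window. Neighbouring Sox9 centres were a median of 28618.5 bp apart and never closer than 5462 bp, against a median of 14639 bp and a smallest spacing of 207.5 bp in Runx1, a difference that was not tested. The more numerous Sox6 peaks of Runx2 stood closer, with 17 of 46 spacings under 1000 bp, where Runx1 had 19 of 55. This share was not computed for the whole Sox6 list. The lowest 133 kb held 8 Sox6 and 4 Sox9 peaks, the middle 133 kb held 12 and 6, and the highest 133 kb held 27 and 4. A cluster of 14 Sox6 peaks lay from 44940219 to 44963407 with 1 shared peak, and a cluster of 7 from 44870646 to 44876139 also had 1. A cluster of 5 Sox6 peaks from 44837431 to 44855327 had 3 shared peaks, and the same stretch held the only Sox9 cluster of the window, with 3 peaks. The other Sox6 clusters of Runx2, of 3 and 5 peaks, had 1 shared peak each. Over the whole Sox6 list 23.1% of peaks were shared, and sharing by cluster was not tested.

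The earliest-listed Sox6 peak at the 3 genes lay in Runx2 and had no overlapping Sox9 peak. It was chr17:44754786-44754912 at place 394 of 79107. A Sox9 peak, chr17:44754541-44754702 at place 17269 of 23865, had its centre 227.5 bp away without touching it, and was the only unshared Sox9 peak of the window. The next Sox6 peak by place, chr17:44951879-44951974 at place 2996, was 9387.5 bp from the nearest Sox9 centre. The third in order, chr17:44796847-44796972 at place 8443, overlapped the Sox9 peak chr17:44796851-44797141 (place 11984). The places 394 and 2996 fall in the same bin, in which 78.3% of all Sox6 peaks were shared, and the difference from Runx1 was not tested. The widest Sox6 peak of the window, chr17:44941654-44942080 with 427 bp, was listed at place 51061 and was unshared.

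The other shared sites of Runx2 were spread over the window and mostly late in the Sox9 list. The earliest Sox9 peak was chr17:44791462-44791606 at place 8477, on the Sox6 peak chr17:44791370-44791623, which came as late as place 66243. At chr17:44637395-44637642 (Sox9 place 11877) the Sox6 peak chr17:44637531-44637585 (place 21879) lay wholly inside. After these and the site at Sox9 place 11984, the next by Sox9 place was chr17:44837382-44837502 at place 16665 on chr17:44837431-44837542 (Sox6 place 52474).

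Seen along the window, the late-listed pairs began with chr17:44627515-44627628 (Sox6 place 28816) and chr17:44627409-44627519 (Sox9 place 19693), which overlapped by only 5 bp. They continued with chr17:44685028-44685189 on chr17:44684994-44685275 (places 47763 and 19583) and chr17:44702486-44702647 on chr17:44702495-44702604 (places 22580 and 19582). In the middle, chr17:44849682-44849804 met chr17:44849620-44849821 (places 51065 and 18290), and chr17:44855133-44855327 met chr17:44855169-44855270 (places 36876 and 17253) with centres 10.5 bp apart, the closest of all pairs. At higher coordinates, chr17:44875023-44875207 met chr17:44874945-44875077 (places 13790 and 19730), and chr17:44913915-44914086 met chr17:44913767-44914074 (places 17801 and 17318). The pair chr17:44942648-44942718 and chr17:44942369-44942709 (places 29491 and 18263) had the widest Sox9 peak of the 3 windows, 341 bp, and the largest centre distance, 144 bp. The last pair was chr17:44978692-44978760 with chr17:44978694-44978867 (places 15671 and 21821).

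Runx3, with the shortest window, had few peaks inside it. Its first Sox6 peak by place, chr4:134702788-134702956 at place 9685, lay wholly inside the Sox9 peak chr4:134702719-134702970 at place 6324, near the middle of the window. The other shared site, chr4:134651631-134651853 with chr4:134651556-134651773 (places 39661 and 18474), was 1.74 kb from the low edge by its Sox6 centre and belonged to a Sox6 cluster of 7 peaks of which only 1 was in the window. Second by place, at 21907, came the unshared Sox6 peak chr4:134747626-134747883. The widest Sox6 peak, chr4:134697500-134697945 with 446 bp, was at place 50167 and unshared. The unshared Sox6 peaks of Runx3 were 5122 to 30309 bp from a Sox9 centre. The last Sox6 peak of Runx3 was centred 0.263 kb inside the high edge and the next one 2.43 kb outside it. At the high edge of Runx1 the nearest outside centres were 4.36 kb (Sox6) and 4.33 kb (Sox9) away, and at that of Runx2 1.74 kb (Sox6) and 1.80 kb (Sox9).

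The members were also described by their place in the deposited lists. The order of the lists is not documented, and it was read here only as an order. The 9 shared Sox6 peaks of Runx1 had a median place at 5.26% of the list, and its 47 unshared ones at 61.3%. In Runx2 the medians were closer, 36.4% for 13 shared and 49.6% for 34 unshared Sox6 peaks, in Runx3 they were 31.2% for 2 shared and 63.4% for 5 unshared ones, and over the whole list they were 19.4% and 58.6%. Over all their Sox6 peaks the genes had medians at 57.3% (Runx1), 46.6% (Runx2) and 57.3% (Runx3). Shared Sox6 peaks of Runx1 were thus listed earlier than the shared peaks of the whole Sox6 list, and those of Runx2 later. Even so, in Runx1 2 shared Sox6 peaks came after the middle of the list. In Runx2 the earliest unshared Sox6 peaks lay at 0.498% and 3.79%. Shared Sox9 peaks had later medians than the 45.4% of the whole Sox9 list in each gene, at 56.6% (Runx1), 76.5% (Runx2) and 52.0% (Runx3). Among Sox9 peaks, 7 of the 14 in Runx2 were in the last 25% of the list and 0 in the first 25%, with a median at 74.5%. Runx1 had 3 Sox9 peaks in the first 25% and 3 in the last 25%, with a median at 55.1%, and the 2 of Runx3 lay at 26.5% and 77.4%. No test of these orders was made, since peaks of a locus share 1 library.

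**Figure D4:**
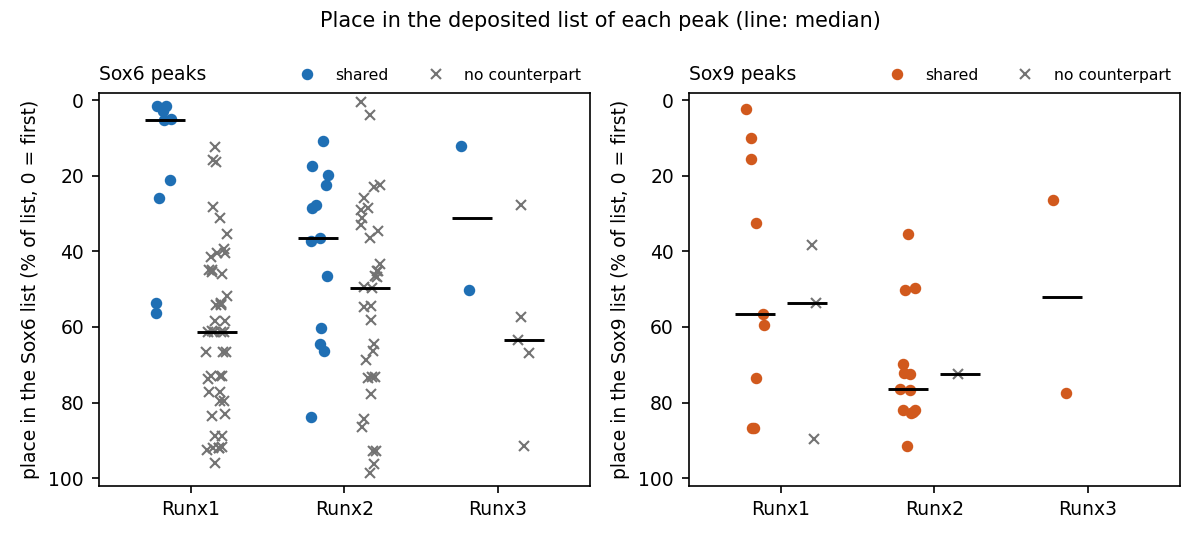
Place of every peak in its deposited list, as percent of the list (0 at the top is the first peak), for Sox6 (left) and Sox9 (right); filled circles are shared peaks, crosses have no counterpart, and bars are medians. Shared Sox6 peaks of Runx1 gather near the top, with a median at 5.26%, and the Sox9 peaks of Runx2 in the lower part, with a median of 76.5% for the shared ones.

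Within the 24 overlapping pairs, the Sox6 peak stood earlier in its list than its Sox9 partner did, as a percentage of each list, in 22. Over the whole lists the same held for 75.3% of 18302 pairs of an overlapping Sox9 peak with the nearest Sox6 centre. That share is 91.7% of the RUNX pairs, and the difference was not tested. The lists differ in length, and the part of this in the order was not tested. Centres were a median of 36 bp apart in the 24 pairs (10.5 to 144 bp), against 40.5 bp over the whole lists, and 16 pairs were within 50 bp (66.7%, against 58.5%). In Runx1 the median was 24 bp over 9 pairs, in Runx2 44.5 bp over 13, and the Runx3 distances were 27.5 and 77.5 bp. The Sox9 peak was the wider in 15 of 24 pairs (62.5%, against 64.6%). The distances and widths of the RUNX pairs lay near those of the whole lists.

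**Figure D5:**
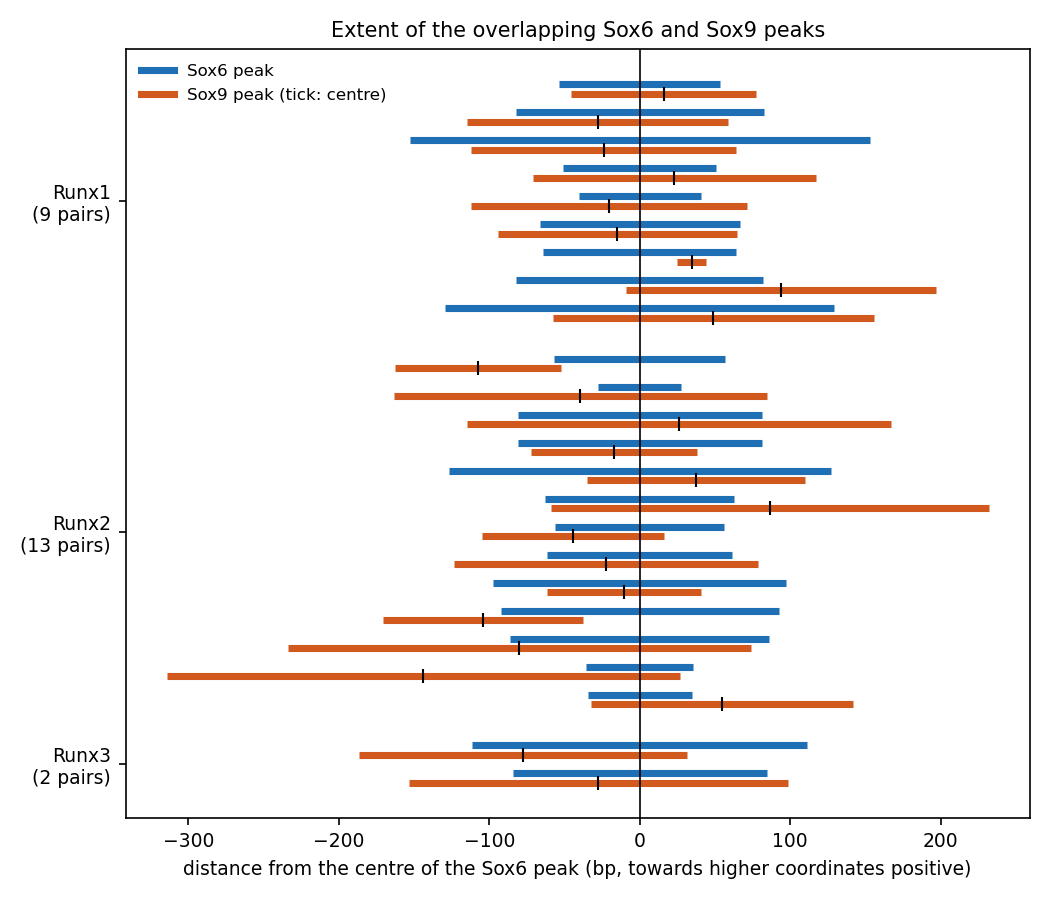
Extent of the 24 pairs of overlapping peaks, centred on the Sox6 peak (bp); blue bars are Sox6 peaks, orange bars Sox9 peaks, and ticks the Sox9 centres. Runx1 centres lie within 94 bp of zero, and the Runx2 pairs scatter up to 144 bp.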

How the data were processed

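The authors' deposited lists hold 3 columns and no header (the chromosome, start and end of each peak), with no score or read count. Per the submitters' processing notes, Bowtie and mm9 were used, with no versions named. The names of both lists carry the marks 2s and FDR1, which are not explained; no source used here names the peak caller or a build for the Sox9 list, which was taken as mm9. Per the series' design text, Sox9 peaks were called in the manner of the Sox6 peaks. Starts were read as counted from 0 and are printed counted from 1. Overlaps, nearest centres, clusters (3 or more peaks with centres within 12.5 kb), tiles and exact intervals (Clopper-Pearson, 95%) were computed with Python 3.11.15, pandas 2.3.3 and SciPy 1.17.1, after the functions had been tested on simulated lists. Peaks named are every Sox9 peak, every shared Sox6 peak and, per window, the first 3 and the widest Sox6 peak. Windows, members and measures were chosen with earlier results of these data known. Motifs in peaks and peaks at RUNX pathway genes were not analysed here, since no mm9 genome or annotation was used.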

Additional observations from a re-analysis of the deposited data

How the results depend on the processing

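Of 78 values recomputed under other settings, 54 stayed within their interval or within 1.5 times the main count; the 24 others follow, and their cause was not tested beyond the smaller lists or wider windows used. With the first 50% of each list the windows held 21 (Runx1), 27 (Runx2) and 2 (Runx3) Sox6 peaks and 5, 2 and 1 Sox9 peaks, and sharing in Runx2 moved to 3.70% of Sox6 peaks (1 of 27) and 50.0% of Sox9 peaks (1 of 2), against 22.5% and 74.7% for the lists. With the Sox6 list shortened to the length of the Sox9 list, 11, 13 and 2 Sox6 peaks were left, of which 63.6% (Runx1) and 46.2% (Runx2) were shared, against 49.9% for the list, and 42.9% of Sox9 peaks in Runx2 were shared, against 50.3%. With 50% of both peaks required to overlap, Runx2 had 14.9% of Sox6 and 50.0% of Sox9 peaks shared, against 13.4% and 44.6% for the lists. With a gap of up to 1000 bp, 100% of Sox9 peaks in Runx1 and Runx2 had a Sox6 partner, against 90.8% of the list, and with centres within 250 bp 100% in Runx2, against 81.1%. Windows widened by 50 kb on each side gave 21 Sox6 and 4 Sox9 peaks for Runx3. With clusters within 5000 bp, 0 Sox6 peaks of Runx3 and 0 Sox9 peaks of Runx2 were clustered, and 3 Sox9 peaks of Runx1. No paired analysis was possible because there is 1 list per factor. Depth is unknown, and with 2 to 14 Sox9 peaks per window only large differences in sharing could be seen.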

Other observations

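Some peaks of a Runx window stood close together in the deposited list as well as in the genome. In Runx1, 28 of 56 Sox6 peaks (50.0%) had another Sox6 peak within 400 kb among the 20 places before or after them, in Runx2 16 of 47 (34.0%), in Runx3 2 of 7 (28.6%), and in the whole Sox6 list 25.9%. The share rose along the Sox6 list, with 6.04% in the first 25% of places and 45.0% in the last 25%, and a dense locus offers more such neighbours. Examples from Runx1, chosen after their values were seen, are the Sox6 peaks at places 57800, 57807 and 57816 and those at places 48504, 48509, 48515 and 48525. Among Sox9 peaks the count was 3 of 12 in Runx1, 5 of 14 in Runx2 (35.7%, including places 19582 and 19583) and 0 of 2 in Runx3. In the whole Sox9 list the share was 16.6%. It was 25.5% in the third 25% of that list and 22.4% in the last 25%, where 5 and 7 of the Runx2 Sox9 peaks lay. These differences were not tested. Small differences of place within such groups were not read as differences in rank.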
